A study of Mus musculus with 8 samples.

Results

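The keratin genes and the small proline-rich protein (Sprr) genes were taken as every gene whose symbol begins with Krt or Sprr followed by a digit, which left out the keratin-associated proteins. The rule found 45 of the 17353 genes in the count table, 35 keratins and 10 Sprr genes. The samples were colonic mucosa taken on day 7 from wild-type C57BL/6J males, 8 mice in 4 groups of 2, whose messenger RNA was sequenced; their age was not given in the sources used here. Dextran sulfate sodium (DSS), a compound that damages the lining of the colon, was put at 3% in the drinking water of every group but the controls. All mice had enemas of 0.2 ml. These held saline for the controls and for the DSS model, the anti-inflammatory drug mesalazine at 50 mg/kg for the mesalazine group, and the herbal preparation Kuiyangling at 10 g/kg for the Kuiyangling group. The 3 DSS groups therefore share the injury and differ in the enema.

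Keratins are the intermediate filament proteins of epithelial cells. They form filaments only in pairs of an acidic (type I) and a basic (type II) keratin, so that each epithelium is marked by its pairs. The simple epithelium of the colon carries Krt8 of type II with the type I keratins Krt18, Krt19 and Krt20, while stratified squamous epithelium, as in skin and the anal canal, carries pairs such as Krt5 with Krt14, Krt1 with Krt10 and Krt4 with Krt13. Sprr proteins are short, rich in proline and cysteine, and are cross-linked by transglutaminases into the cornified envelope of squamous cells. Members of the Sprr2 group are also made by intestinal epithelium, where Sprr2a is known to respond to gut bacteria and Sprr1a is known as a gene of injured or regenerating epithelium.

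The upstream sequences of 3 Sprr genes are shown: Sprr1a and Sprr2h because they had the lowest p-values among the members between the DSS model and controls, and Sprr2a1 because its near-identical copies bear on how their counts can be read. Each is the 250 bases before the RefSeq gene start on GRCm38.p6, read 5′ to 3′ on the gene's strand. Capitals mark the AP-1 motif TGANTCA, searched on both strands, and TATAAA, searched on the gene's strand. The 2 motifs did not overlap.

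Sprr1a, chr3:92485882-92486131, minus strand: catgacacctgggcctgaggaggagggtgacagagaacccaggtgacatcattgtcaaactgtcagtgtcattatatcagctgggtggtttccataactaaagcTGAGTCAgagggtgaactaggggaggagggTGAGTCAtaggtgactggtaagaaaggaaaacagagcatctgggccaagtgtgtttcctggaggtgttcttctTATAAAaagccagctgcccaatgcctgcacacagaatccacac
Sprr2h, chr3:92385435-92385684, plus strand: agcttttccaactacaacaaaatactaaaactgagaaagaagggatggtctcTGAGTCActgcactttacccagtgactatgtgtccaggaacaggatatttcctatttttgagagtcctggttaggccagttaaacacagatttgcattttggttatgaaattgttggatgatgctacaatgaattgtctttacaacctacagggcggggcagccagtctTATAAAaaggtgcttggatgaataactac
Sprr2a1, chr3:92215585-92215834, plus strand: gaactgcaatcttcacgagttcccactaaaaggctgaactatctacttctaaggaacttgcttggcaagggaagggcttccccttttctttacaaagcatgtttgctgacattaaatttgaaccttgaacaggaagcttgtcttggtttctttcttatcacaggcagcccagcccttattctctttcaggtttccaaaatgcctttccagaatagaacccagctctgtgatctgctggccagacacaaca

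The upstream sequence of Sprr2a2 was identical to that of Sprr2a1 over all 250 bases. That of Sprr2a3 was identical over 222 bases once shifted by 28 bases. RefSeq upstream sequences were matched for 30 of the 45 genes. TGANTCA stood in 8 of these 30, and in 7 of the 10 Sprr genes, namely Sprr1a, Sprr2b, Sprr2d, Sprr2f, Sprr2h, Sprr2i and Sprr2k. It stood in 6.75% of all 32851 upstream windows of this length. Sprr1a held it at 146 and 116 bases and Sprr2h at 198 bases before the start, while the 3 Sprr2a copies held neither motif in these windows. Among the 20 keratins matched, Krt13 alone held it. TATAAA stood in 13 of the 30, against 7.59% of all windows. These matches describe the letters and say nothing of binding.

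The copies also bear on how the counts can be read. Of the 100-base words in the GENCODE M21 transcripts of Sprr2a1 and Sprr2a2, 92.5% and 92.8% occurred in another of the genes compared, against 36.2% for Sprr2a3, 0.438% for Sprr2b and none for Sprr1a, Sprr2h, Krt7, Krt8, Krt18, Krt19 or Krt20. No source used here gives how the authors assigned reads that fit several copies. Values of single Sprr2a copies are therefore uncertain, and their sum is given as well.

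The libraries held between 15560946 and 17843715 counts, and 3 counts in a library, taken as the floor, correspond to 0.149 to 0.212 CPM (counts scaled to library size after TMM). A pair of libraries stood apart from the rest, mesalazine 1 and control 2, with a mean Spearman correlation to the other libraries of 0.94 and 0.945, against 0.963 to 0.974. The tissue label was checked against 12 genes of colonic epithelium. All 12 were detected in every library and their sum ran from 14679 to 23875 CPM.

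Simple epithelial keratins made up nearly all keratin RNA in every library. The 6 members Krt7, Krt8, Krt18, Krt19, Krt20 and Krt23 held 176032 to 268942 counts per library, or 1.07% to 1.59% of all counts. The 15 squamous keratins together held 84 to 149 counts per library, and the 11 hair and root sheath keratins 57 to 174. The 10 Sprr genes held 11762 to 22651 counts, of which the 3 Sprr2a copies made up 97.2% to 99.0%. At least 10 counts over all 8 libraries were reached by 27 members, and the other 18 reached at most 8 counts in all and at most 5 in any library.

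**Figure D1:**
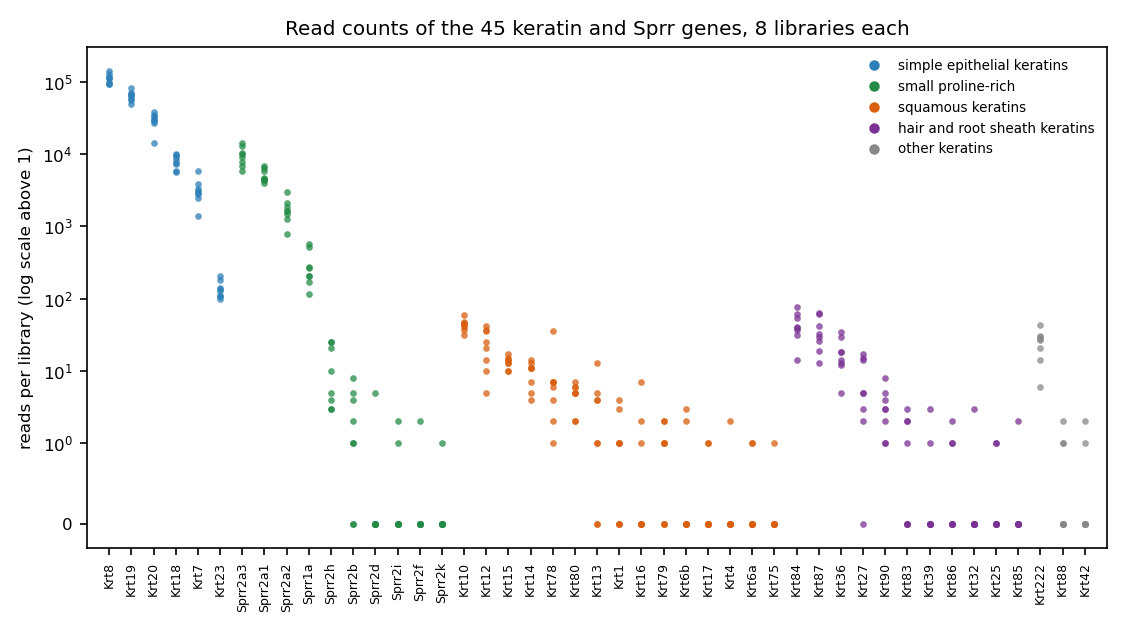
Reads per library (vertical axis, log scale above 1) for each of the 45 genes, 1 point per library, coloured by class. Krt8 and Krt19 lie near the top, the 3 Sprr2a copies in between, and no squamous keratin passes 60 counts in any library.

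Levels between genes were compared per length, as FPKM (fragments scaled by gene length and library depth, as the authors deposited them). Krt8 was the highest member in all 8 libraries, at 3018 to 4585 FPKM with a median share of 47.8% of the summed simple keratins. Krt19, the smallest keratin, followed at 2096 to 3412 FPKM and was below Krt8 within each library, although the ranges over libraries overlapped. Krt20, a keratin of differentiated surface cells, stood at 421 to 1218 FPKM. Krt18, the classical partner of Krt8, stood at 251 to 419 FPKM and Krt7 at 54.8 to 214 FPKM. Krt23, a type I keratin of the digestive tract, was low at 3.95 to 7.92 FPKM. Sprr2a3 (421 to 1065 FPKM) overlapped with Krt20 in its range over libraries. Within libraries Krt20 was the higher in all but mesalazine 1, where it stood at 421 against 533 FPKM for Sprr2a3. Sprr1a stood at 8.73 to 42.6 FPKM and Sprr2h at 0.224 to 2.14 FPKM. The authors' FPKM imply gene lengths of 3547 bases for Sprr2a1 and Sprr2a2 and 852 bases for Sprr2a3, so that FPKM was not used to compare the copies.

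The type II keratins, Krt8 with Krt7, and the type I keratins, Krt18 with Krt19, Krt20 and Krt23, were close to equal in summed FPKM in every library. The ratio of type II to type I was 0.984 and 0.976 in the controls, 1.004 and 0.906 in the DSS model, 0.919 and 1.01 with mesalazine, and 0.965 and 0.967 with Kuiyangling (replicates 1 and 2). Both Kuiyangling libraries lay slightly below both controls, and every other pair of groups overlapped in this ratio. The make-up of the type I side varied more. Krt20 took 11.9% and 14.8% of the simple keratin FPKM in controls, 9.87% and 13.0% in the DSS model, 6.38% and 13.0% with mesalazine, and 12.8% and 11.5% with Kuiyangling. The lowest share, 6.38%, was that of mesalazine 1, in which Krt19 had its highest share of any library (39.8%).

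**Figure D2:**
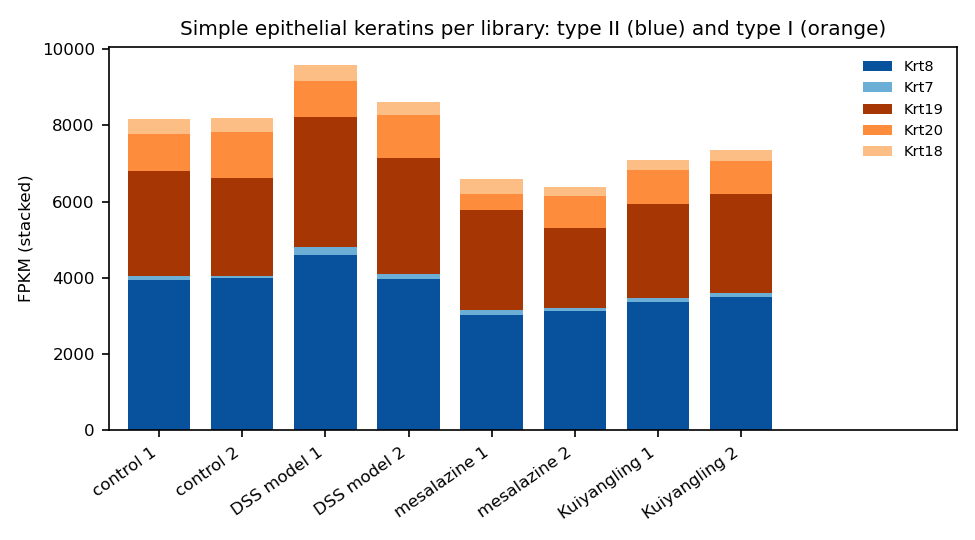
FPKM of the simple epithelial keratins stacked for each of the 8 libraries, with type II keratins in blue and type I keratins in orange; Krt23, under 8 FPKM in every library, is not drawn. The blue and orange parts are close to equal in height in all libraries, with a ratio between 0.906 and 1.01.

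No keratin or Sprr gene passed the test in any comparison. With edgeR's quasi-likelihood test, fitted on 13381 genes in all 8 libraries and adjusted by Benjamini-Hochberg, 20 of the 45 members had enough counts to be tested and 0 were called at an adjusted p under 0.05. Over all genes tested, 0.247% were called between the DSS model and controls (0.194% up and 0.0523% down), 0.239% between Kuiyangling and controls (0.187% higher and 0.0523% lower), 0.673% between mesalazine and controls (0.433% and 0.239%), 2.19% between the 3 DSS groups together and controls (0.844% and 1.35%), 0.202% in the test among the 4 groups, and 0% in each of the 3 comparisons among the DSS groups. At an unadjusted p under 0.05 there were 5 of 20 members between the DSS model and controls (14.8% of all genes), 4 between Kuiyangling and controls (10.3%), 2 between mesalazine and controls (20.0%), 6 between the 3 DSS groups and controls (20.6%), 3 between Kuiyangling and the DSS model (3.56%), 6 between mesalazine and the DSS model (5.49%), 0 between Kuiyangling and mesalazine (1.90%) and 5 among the 4 groups (12.4%). DESeq2 called Sprr1a and Krt7 between the DSS model and controls, and Sprr1a between mesalazine and the DSS model and among the 4 groups. It also called Sprr2a2 between mesalazine and controls, and 0 members in the other comparisons. The shares above are those of edgeR. The share of all genes that DESeq2 called is not given here, so its calls cannot be read against a background.

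Sprr1a came closest to a call. It stood at 8.47 and 12.5 CPM in controls and at 35.5 and 34.7 CPM in the DSS model. With mesalazine it stood at 8.28 and 12.0 CPM, and with Kuiyangling at 16.6 and 14.1 CPM. Both DSS model libraries lay above all 6 others, both Kuiyangling libraries lay between them and the controls, and the mesalazine libraries lay within or just under the range of the controls. The DSS model mean of 35.1 ± 0.518 CPM (SD, n = 2) was 3.36-fold the control mean by the fit (log2 change 1.75, SE 0.31, 95% interval 1.05 to 2.44; edgeR adjusted p = 0.0613), the 49th smallest p of 13381. Kuiyangling differed from the DSS model by -1.19 (SE 0.31, interval -1.88 to -0.51; edgeR adjusted p = 0.996) and mesalazine by -1.79 (SE 0.31, interval -2.48 to -1.09; edgeR adjusted p = 0.259). These 3 comparisons share the DSS model libraries.

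Sprr2h, a lowly expressed member of the Sprr2 group, had 3 counts in each control and 25 in each DSS model library. It had 10 and 4 counts with mesalazine and 5 and 21 with Kuiyangling. The DSS model libraries were the highest of the 8, and both treatments spread between them and the controls. In CPM the means were 0.167 ± 0.0257 in controls and 1.61 ± 0.0602 in the DSS model (SD, n = 2; log2 change 3.23, SE 0.84, interval 1.36 to 5.10; edgeR adjusted p = 0.152). Control counts lay at the floor of 3, so the size of the fold is poorly set. Sprr2b, too low to be tested, had 1 count in each control, 4 and 8 in the DSS model, 2 and 0 with mesalazine and 5 and 0 with Kuiyangling. The remaining Sprr members Sprr2d, Sprr2f, Sprr2i and Sprr2k had under 10 counts in all.

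The Sprr2a copies carried most Sprr RNA, and together they stood at 634 and 1223 CPM in controls, 1279 and 1465 in the DSS model, 927 and 674 with mesalazine and 921 and 843 with Kuiyangling. The DSS model libraries were the highest, with control 2 close below them. Fitted as 1 gene, a choice made after the data were seen, the sum differed between the DSS model and controls by 0.56 on the log2 scale (SE 0.37; edgeR adjusted p = 0.456), from the DSS model by -0.64 with Kuiyangling (SE 0.37; edgeR adjusted p = 0.996) and by -0.78 with mesalazine (SE 0.37; edgeR adjusted p = 0.913).

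The copies did not share 1 order of groups. Sprr2a3, the copy with most unshared sequence, stood at 334 and 621 CPM in controls, 801 and 936 in the DSS model, 545 and 344 with mesalazine and 558 and 527 with Kuiyangling, and its DSS model libraries were above all others (log2 change from controls 0.86, SE 0.37, interval 0.04 to 1.68; edgeR adjusted p = 0.32). Sprr2a2 stood at 103 and 181 CPM in controls, 114 and 108 in the DSS model, 55.1 and 74.5 with mesalazine and 90.2 and 85.4 with Kuiyangling, so that all 4 treated libraries lay below both controls. Sprr2a1 stood at 197 and 421 CPM in controls and at 364 and 421 in the DSS model, which overlap. Sprr2a3 took 52.8% and 50.8% of the copies' counts in controls, 62.6% and 63.9% in the DSS model, 58.7% and 50.9% with mesalazine and 60.6% and 62.5% with Kuiyangling. Since Sprr2a1 and Sprr2a2 share most of their transcript sequence, whether these shares reflect the genes or the assignment of reads was not tested.

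Krt7, a type II keratin of ducts and other simple epithelia, was the simple keratin with the lowest p between the DSS model and controls. It stood at 139 and 86.1 CPM in controls and 361 and 218 in the DSS model. It stood at 272 and 144 CPM with mesalazine and at 181 and 157 with Kuiyangling. After TMM, all 6 DSS libraries lay above both controls, by little in mesalazine 2. The 3 DSS groups overlapped in part. The DSS model differed from controls by 1.36 on the log2 scale (SE 0.40, interval 0.48 to 2.25; edgeR adjusted p = 0.184), Kuiyangling from the DSS model by -0.78 (SE 0.39, interval -1.65 to 0.09; edgeR adjusted p = 0.996) and mesalazine from the DSS model by -0.48 (SE 0.39, interval -1.35 to 0.39; edgeR adjusted p = 0.9999). Krt7 is also a keratin of urothelium and mesothelium, and 8 genes of those tissues summed to 17.8 to 31.8 CPM per library, with 0 of 3 tested called in any comparison. By group the sum ran from 17.8 to 23.9 CPM in controls, 20.4 to 22.3 in the DSS model, 19.2 to 31.8 with mesalazine and 18.3 to 22.3 with Kuiyangling. The 3 tested, Msln, Upk1a and Upk1b, had a median log2 change of 1.11 between the DSS model and controls, with 2 of 3 above 0, and of 1.37 between the 3 DSS groups and controls. Upk1a, which held most counts of the sum in every library, was the 1 below 0 between the DSS model and controls. Upk1b, a urothelial plaque protein, had 36 and 24 counts in controls, 62 and 48 in the DSS model, 133 and 62 with mesalazine and 59 and 57 with Kuiyangling. Msln, a mesothelial surface protein, had 4 and 9 counts in controls and 9 to 34 in the DSS libraries, while Upk2, Upk3a, Upk3b, Wt1 and Lrrn4 had 0 to 3 counts in any library. Their part in the Krt7 values was not tested.

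**Figure D3:**
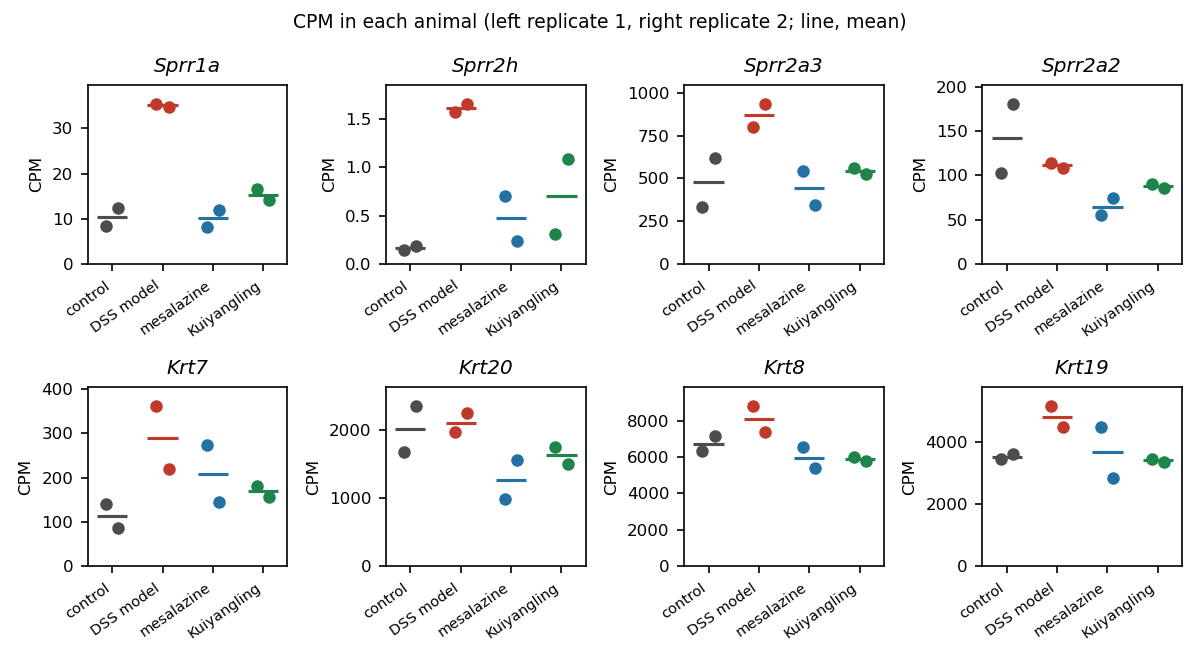
CPM of 8 members in each animal by group, with replicate 1 on the left, replicate 2 on the right and a line at the mean of the 2 animals; each vertical axis starts at 0. The DSS model libraries are the highest for Sprr1a, Sprr2h and Sprr2a3, at 35.5 and 34.7 CPM for Sprr1a, while Sprr2a2 has its highest value in control 2.

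Krt20 stood at 1671 and 2351 CPM in controls and at 1962 and 2249 in the DSS model, whose libraries lay within the range of the controls (log2 change 0.07, SE 0.35, interval -0.71 to 0.85; edgeR adjusted p = 0.935). With mesalazine it stood at 985 and 1556 CPM, below both controls and both model libraries (from the DSS model -0.73, SE 0.35; edgeR adjusted p = 0.926). This value was -0.45 without mesalazine 1 and -1.10 without mesalazine 2. With Kuiyangling it stood at 1753 and 1505 CPM (-0.37 from the DSS model; edgeR adjusted p = 0.996).

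The main pair, Krt8 and Krt18, and their companion Krt19 had smaller log2 changes than Krt7 between the DSS model and controls, and all 3 were lower in both Kuiyangling libraries than in both model libraries. Krt8 stood at 6309 and 7153 CPM in controls, 8813 and 7374 in the DSS model, 6538 and 5388 with mesalazine and 6022 and 5786 with Kuiyangling. The DSS model libraries were the highest, and the Kuiyangling libraries lay below both controls. Krt19 stood at 3452 and 3590.4 CPM in controls, 5145 and 4458 in the DSS model, 4464 and 2844 with mesalazine and 3429 and 3362 with Kuiyangling, so that mesalazine 1 lay just above the lower DSS model library. Krt18 stood at 476 and 510.2 CPM in controls, 625 and 495 in the DSS model, 647 and 336 with mesalazine and 350.0 and 373 with Kuiyangling. Log2 changes between the DSS model and controls were 0.27 for Krt8 (interval -0.50 to 1.03), 0.45 for Krt19 (-0.33 to 1.23) and 0.18 for Krt18 (-0.58 to 0.95). Between Kuiyangling and the DSS model they were -0.46, -0.50 and -0.63, and between mesalazine and the DSS model -0.44, -0.39 and -0.19. The intervals all include 0, and a test that was not passed does not show equal levels. Krt23 stood at 6.79 and 11.1 CPM in controls, 7.93 and 7.23 in the DSS model, 14.7 and 6.42 with mesalazine and 6.07 and 7.16 with Kuiyangling, and the groups overlapped except that both Kuiyangling libraries were below both model libraries. Its log2 changes were -0.24 between the DSS model and controls, -0.19 between Kuiyangling and the DSS model and 0.48 between mesalazine and the DSS model.

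**Figure D4:**
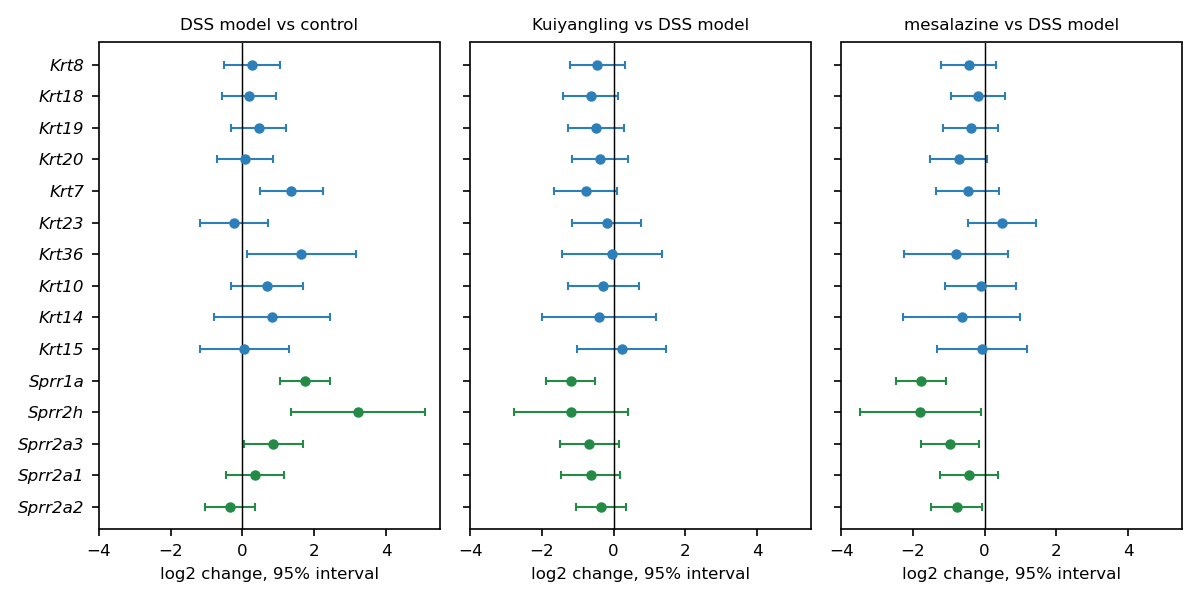
Log2 changes with unadjusted 95% intervals for 10 keratins (blue) and 5 Sprr genes (green) in 3 comparisons that share the DSS model libraries. Sprr1a has an interval away from 0 in each comparison (1.05 to 2.44, -1.88 to -0.51 and -2.48 to -1.09), although no gene passed after adjustment over all genes.

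As a class, the 6 simple keratins had a median log2 change of 0.23 between the DSS model and controls, with 5 estimates above 0, against -0.04 over all genes tested. They had -0.48 between Kuiyangling and the DSS model, with all 6 below 0 (all genes 0.00), and -0.42 between mesalazine and the DSS model, with 5 of 6 below 0 (all genes 0.04). Their summed level was 12879 ± 1164 CPM in controls, 15859 ± 1495 in the DSS model, 11598 ± 1871 with mesalazine and 11465 ± 389 with Kuiyangling (SD, n = 2). The mesalazine libraries stood at 12920 and 10275 CPM, which overlaps with the controls at 12055 and 13702. Without TMM they stood at 10767 and 10723, below the controls at 13635 and 13832. The DSS model libraries were the highest with and without TMM. The 12 genes of colonic epithelium had medians of 0.22 (10 of 12 above 0), -0.35 (11 of 12 below 0) and -0.22 (10 of 12 below 0) in the same comparisons, and 0 of 12 called in any. Their summed range was 14679 to 18459.6 CPM in controls, 19547 to 21632 in the DSS model, 17082 to 23875 with mesalazine and 14947 to 18459 with Kuiyangling. Their part in the keratin values was not tested. In bulk tissue, fewer epithelial cells and less keratin RNA per cell cannot be told apart.

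The 5 Sprr genes tested had a median log2 change of 0.86 between the DSS model and controls (4 of 5 above 0), -0.68 between Kuiyangling and the DSS model and -0.97 between mesalazine and the DSS model, with all 5 below 0 in both. Between the DSS model and controls, 10 of the 20 members tested were higher without overlap of libraries, Krt7, Krt8, Krt10, Krt14, Krt19, Krt36, Krt84, Sprr1a, Sprr2a3 and Sprr2h, against 27.1% of all genes, and 2 were lower, Krt27 and Krt222, against 26.3%. Between Kuiyangling and the DSS model, 12 of 20 were lower without overlap (21.1% of all genes) and 3 higher (21.9%). Between mesalazine and the DSS model, 9 were lower (13.8%) and 2 higher (14.0%). Against controls, 8 were higher with Kuiyangling (25.9%) and 4 lower (23.2%), and 7 were higher with mesalazine (23.6%) and 2 lower, Krt20 and Sprr2a2 (22.1%). Between Kuiyangling and mesalazine, 5 were higher (10.6%) and 2 lower (11.6%). The first 3 of these comparisons share the DSS model libraries, and those with controls share the controls.

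Squamous keratins gave few reads in every group, and most of them lay near the floor of 3 counts. Krt10, the type I keratin of the upper layers of skin, was the most abundant and had 40 and 31 counts in controls, 37 and 60 in the DSS model, 43 and 48 with mesalazine and 45 and 46 with Kuiyangling. Krt14, the type I keratin of basal squamous cells, had 11 and 5 counts in controls, 13 and 11 in the DSS model, 11 and 4 with mesalazine and 7 and 14 with Kuiyangling. Krt15, another basal keratin, had 10 to 17 counts in all libraries. Krt12, a keratin of the cornea, had 14 and 42 counts in controls, 5 and 25 in the DSS model, 10 and 37 with mesalazine and 36 and 21 with Kuiyangling. After scaling, Krt12 overlapped between all groups. Krt10 was higher in all 6 DSS libraries than in both controls, and lower with Kuiyangling than with mesalazine. Krt14 was higher in both DSS model libraries than in both controls and both Kuiyangling libraries, by little in the latter case. Krt15 was higher in both Kuiyangling libraries than in the other 6, but by very little, at 0.883 CPM in Kuiyangling 2 against 0.881 in DSS model 1. The log2 changes between the DSS model and controls were 0.69 for Krt10 (interval -0.31 to 1.69), 0.83 for Krt14 (-0.79 to 2.45) and 0.05 for Krt15 (-1.20 to 1.30). Between Kuiyangling and the DSS model Krt10 was at -0.28, Krt14 at -0.40 and Krt15 at 0.23, and between mesalazine and the DSS model at -0.11, -0.64 and -0.07.

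Other squamous keratins had too few counts to be tested. Krt13, the partner of Krt4, had 1 and 4 counts in controls and 5 and 4 in the DSS model. It had 1 and 0 with mesalazine and 0 and 13 with Kuiyangling. Krt78 had 7 and 36 counts in controls, 4 and 6 in the DSS model, 2 and 1 with mesalazine and 7 in each Kuiyangling library, and so was led by control 2. Krt16, a keratin of activated epidermis, had 7 counts in control 2 and at most 2 elsewhere, Krt80 had 2 to 7 counts, and Krt1 had 3 and 4 counts in controls and at most 1 elsewhere. Krt4, Krt6a, Krt6b, Krt17, Krt75 and Krt79 were among the 18 members with under 10 counts, and Krt5 was not among the genes in the count table used here. The summed squamous keratins were 7.12 ± 2.92 CPM in controls, 6.88 ± 2.27 in the DSS model, 6.10 ± 0.121 with mesalazine and 6.90 ± 0.575 with Kuiyangling (SD, n = 2), differences within the spread between animals. A set of 18 genes of squamous epithelium that are no keratins was read beside them. Of these 14 were analysed, Dsg3 had 0 to 4 counts, and Dsc1, Dsc3, Calml3 and Col17a1 had 0 to 2. The sum of the 14, 512 to 723 CPM, came from Perp, Serpinb5 and Pkp1, which colonic epithelium also expresses. Lypd3, a squamous surface protein too low to be tested, had 0 counts in both controls, 6 and 11 in the DSS model, 1 and 7 with mesalazine and 0 and 1 with Kuiyangling. Fat2, a cadherin of squamous epithelium, went the other way, with 38 and 29 counts in controls, 1 and 3 in the DSS model, 16 and 11 with mesalazine and 10 and 5 with Kuiyangling (DSS model against controls -3.75, SE 0.79; edgeR adjusted p = 0.0993). Between the 3 DSS groups and controls Fat2 was at -2.29 (edgeR adjusted p = 0.0502). The 6 tested had a median log2 change of -0.48 between the DSS model and controls, with 4 of 6 below 0, and 0 were called in any comparison.

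Hair and root sheath keratins gave few reads, though some more than the squamous ones. Krt84, a type II hair keratin, had 39 and 14 counts in controls, 62 and 37 in the DSS model, 31 and 40 with mesalazine and 77 and 54 with Kuiyangling, so that all 6 DSS libraries were above both controls after scaling. Krt36, a type I hair keratin, had 5 and 12 counts in controls, 18 and 29 in the DSS model, 14 and 13 with mesalazine and 18 and 35 with Kuiyangling, with the same absence of overlap. Its log2 change between the DSS model and controls was 1.64 (SE 0.68, interval 0.13 to 3.15; edgeR adjusted p = 0.308), and its changes from the DSS model were -0.05 with Kuiyangling and -0.80 with mesalazine. After TMM, 5 members were higher in all 6 DSS libraries than in both controls, against 14.3% of all genes. These were Krt7, Krt10, Krt36, Krt84 and Sprr2h, and 0 were lower, against 11.3%. In the deposited FPKM, which use no TMM, control 1 lay above a DSS library for some of them. This held for Krt7 (99.4 against 94.6 in mesalazine 2), Krt10 (1.06 against 1.03 in DSS model 1) and Krt84 (0.85 against 0.711 in mesalazine 1). Krt87 had 63 and 19 counts in controls, 42 and 29 in the DSS model, 32 and 13 with mesalazine and 26 and 62 with Kuiyangling, and Krt90 had 1 to 8 counts in each library.

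A pair of low members stood lowest in the DSS model. Krt27, a root sheath keratin, had 5 and 3 counts in controls, 0 and 2 in the DSS model, 5 and 14 with mesalazine and 17 and 15 with Kuiyangling. Krt222, an atypical keratin-like gene, had 21 and 27 counts in controls, 14 and 6 in the DSS model, 30 and 43 with mesalazine and 29 and 28 with Kuiyangling. Both were above both model libraries in every treated library. Neither passed the test in any comparison (the lowest edgeR adjusted p was 0.299 for Krt27, among the 4 groups, and 0.399 for Krt222, between the DSS model and controls).

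Partners of these proteins were read from lists that are no members. Of 13 genes of keratin-anchoring junctions and linkers, such as the desmosomal plaque protein Dsp, all were tested and 0 were called in any comparison, with a median log2 change of -0.04 between the DSS model and controls. Of 23 genes of the cornified envelope and its cross-linking, 15 were analysed and 9 tested. Among them Tgm3, a transglutaminase that cross-links Sprr proteins in squamous cells, fell in the 3 DSS groups together against controls (log2 change -6.70, SE 0.82; edgeR adjusted p = 0.00771) and with mesalazine against controls (-9.30, SE 1.48; edgeR adjusted p = 0.0312), and the other 8 were called in no comparison. Tgm3 was also called in the test among the 4 groups (edgeR adjusted p = 0.0469). Whether that call holds without single libraries was not tested. Tgm3 had 2350 and 23991 counts in controls, 209 and 63 in the DSS model, 12 and 28 with mesalazine and 199 and 1333 with Kuiyangling. The controls were above every DSS library but far apart from each other. Without control 2 the change of Tgm3 against controls was -3.93 in the 3 DSS groups and -6.52 with mesalazine, which ends the calls in these comparisons. The mesalazine call was also lost without mesalazine 1, DSS model 1 or DSS model 2. Of 17 regulators of squamous or intestinal fate analysed, 16 were tested and 0 called in any comparison. Their median log2 change between the DSS model and controls was -0.29, with 11 of 16 below 0. The list includes the AP-1 genes Fosl1, Fos, Jun and Junb, of which Jun and Junb are not shown. Fosl1 had 59 and 27 counts in controls, 55 and 98 in the DSS model, 13 and 34 with mesalazine and 40 and 43 with Kuiyangling. Fos was at a log2 change of -0.73 between the DSS model and controls.

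The genes whose log2 CPM over the 8 libraries was most like that of Sprr1a, among the 12220 tested genes that averaged 1 CPM or more, were Tpm1 (Pearson r = 0.974), Spata6 (0.970), Rab32 (0.969), Setd3 (0.967) and Gata3 (0.959). Those most like Krt20 were Iigp1 (0.965), Tra2a (0.965), Gvin2 (0.961), Gm12250 (0.961) and Crybg1 (0.960). These are descriptions over 8 libraries that share 4 conditions, picked as the highest of many. Among the members, Sprr1a had r = 0.806 with Sprr2a3 and 0.723 with Sprr2h, and Krt20 had r = 0.903 with Sprr2a2 but -0.318 with Krt7.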

How the data were processed

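Per the submitters' processing notes, the authors used Trimmomatic and HISAT2, with no version stated, and deposited read counts per gene. The deposited FPKM equal these counts scaled by a gene length and by each library's depth, which was checked on the values. The libraries were strand-specific (TruSeq stranded mRNA, per the labels' protocols). The counting tool, its strand setting, the annotation and the genome build are not given in the sources used here. A column with a misspelled group name was taken as mesalazine replicate 2 from its number.

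All 8 libraries were filtered with filterByExpr, scaled by TMM and fitted in 1 edgeR 4.0.16 model (R 4.3.3) with a mean per group. Quasi-likelihood F tests covered each pair of groups, the 3 DSS groups against controls and any difference among the 4 groups, with Benjamini-Hochberg adjustment over 13381 genes and calls at 0.05. Intervals are 95% and unadjusted. The p-values rest on the spread between the 2 animals within each group, pooled over the 4 groups and drawn towards that of other genes. DESeq2 1.42.0 was an alternative. The test was checked on simulated counts.

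Every member with at least 10 counts in all was named, with log2 changes for a panel of members. The log2 changes of Sprr2a1, Sprr2a2, Tgm3, Fat2 and Fos, and the values of Lypd3, Upk1b, Msln and Fosl1, were picked after they were seen. Members, classes and lists were chosen with earlier results of these data known. Upstream sequences are from RefSeq (GRCm38.p6) and transcripts from GENCODE M21.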

Additional observations from a re-analysis of the deposited data

How the results depend on the processing

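The count of members called was 0 in each of the 8 comparisons and stayed at 0 with DESeq2 size factors in edgeR, with the replicate block and, where it applies, in fits of only the groups compared. It was not 0 elsewhere. The share of all genes called under these other settings is not given here, so the counts below cannot be read against a background. With DESeq2 it was 2 between the DSS model and controls (Krt7 and Sprr1a), 1 between mesalazine and the DSS model (Sprr1a), 1 between mesalazine and controls (Sprr2a2) and 1 among the 4 groups (Sprr1a). Without the filter on low counts it was 3 between the DSS model and controls (Krt7, Sprr1a and Sprr2h), 1 between mesalazine and the DSS model (Sprr1a), 2 between mesalazine and controls (Krt78 and Sprr2a2), 1 between the 3 DSS groups and controls (Krt78) and 1 among the 4 groups (Sprr1a). Leaving out single libraries gave 0 to 1 between the DSS model and controls (Sprr1a, without mesalazine 1 or mesalazine 2), 0 to 2 between mesalazine and controls (Krt78 without control 1; Krt7 and Sprr2a2 without mesalazine 2), 0 to 2 between the 3 DSS groups and controls (the same members under the same libraries), 0 to 1 among the 4 groups (Sprr1a, without mesalazine 2) and 0 in the comparisons of the treatments with the DSS model, of Kuiyangling with controls and of Kuiyangling with mesalazine. Without control 2 and mesalazine 1 together, an alternative added after the data were seen, it was 1 between the DSS model and controls and 1 among the 4 groups (Sprr1a in both). The causes were not tested.

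Sprr1a kept its direction in all 15 alternatives of each comparison, at 1.49 to 2.05 between the DSS model and controls (edgeR or DESeq2 adjusted p = 0.000351 to 0.284), -1.34 to -1.08 with Kuiyangling and -2.09 to -1.54 with mesalazine against the DSS model. Krt7 between the DSS model and controls ran from 0.95 to 1.75 and Sprr2h from 3.07 to 3.38. With Kuiyangling against the DSS model Sprr2h ran from -2.36 to -0.59. Some values turned direction without single libraries. Between the DSS model and controls these were Krt20 (-0.16 to 0.33 over single libraries left out), Krt23 (-0.56 to 0.16), Krt15 (-0.17 to 0.24), Sprr2a1 (-0.11 to 1.0) and Sprr2a2 (-0.71 to 0.12). With Kuiyangling against the DSS model they were Krt36 (-0.45 to 0.37) and Krt10 (-0.62 to 0.15), and with mesalazine against the DSS model Krt18 (-0.75 to 0.20), Krt23 (-0.25 to 0.95), Krt10 (-0.45 to 0.32), Krt14 (-1.71 to 0.0046) and Krt15 (-0.26 to 0.14). Of these, Krt14 and Krt23 with mesalazine had main estimates of -0.64 and 0.48, so that not only values near 0 turned. Without control 2 and mesalazine 1 together, Krt23 turned to 0.14 between the DSS model and controls and to -0.24 with mesalazine, and Sprr2a2 to 0.10 between the DSS model and controls.

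Same-numbered replicates did not deviate together (correlations of -0.311 to 0.162 between groups), so the numbers were not taken as pairs, and the replicate block gave 0 members called in each comparison. FPKM rescaled to the same sum in every library had to move each of the 36 mean levels, since libraries sum to 441918 to 691815 FPKM. It also changed the order of groups. Krt8 averaged 3977 FPKM in controls and 4272 in the DSS model as deposited, but 8982 and 8016 after rescaling. Krt18 went from 376 and 381 to 850 and 716, and Krt19 from 2659 and 3232 to 6004 and 6059. Krt7, Sprr1a, Sprr2a3 and Sprr2h stayed higher in the DSS model. The direction for Krt8 and Krt18 thus depends on the scaling. Leaving out a library leaves a group with 1 animal, which is assumed to vary like the others. At 2 animals per group and few counts, squamous and hair keratins could not show modest differences.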
